A study of Mus musculus with 24 samples.

Results

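The genes described here belong to the pathway through which BAFF and APRIL keep B cells alive, here in blood taken from mice of 2 ages after X-rays or sham exposure. They are the ligand genes Tnfsf13b (BAFF) and Tnfsf13 (APRIL), the receptor genes Tnfrsf13b (TACI) and Tnfrsf13c (BAFF receptor), the adaptor genes Traf2 and Traf3, the kinase gene Map3k14 (NIK), and Nfkb2 and Relb, the NF-kB subunit genes at the end of the pathway. The 9 genes were chosen by the gene name that the arrays give each probe, and 8 of the 9 were found, with 15 of the 39429 probes. No probe carries the name Tnfsf13. 2 probes are named Tnfsfm13, the fusion transcript that joins the intracellular and membrane-spanning part of the neighbouring gene Tnfsf12 to the receptor-binding part of Tnfsf13, and the annotation of these probes also lists the APRIL transcript, so APRIL and the fusion transcript cannot be told apart. Tnfsfm13 is therefore described beside the 8 genes and is not counted among them. All 8 genes and Tnfsfm13 passed the filter on dim probes and were among the 17464 genes tested.

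The study asked how aging alters the transcriptional response of whole blood to ionizing radiation. Male C57BL/6J mice, an inbred laboratory strain, were 2 months old (young) or 21 months old (old), and at each age 6 mice received 4 Gy of X-rays to the whole body and 6 were sham-irradiated, which gives 24 mice and 24 arrays in 4 groups. Blood was drawn from the heart 24 h later, and RNA depleted of globin transcripts was hybridized to 1-colour Agilent mouse arrays. No transgene, deletion or drug was used. All mice were males of a single strain, and a single dose and a single time were examined, so the values describe that setting.

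BAFF and APRIL are cytokines of the tumor necrosis factor family. BAFF is made mainly by myeloid and stromal cells and binds the BAFF receptor, TACI and BCMA on B lineage cells, whereas APRIL binds TACI and BCMA. Without a signal, TRAF3 and TRAF2 hold NIK in a complex with the ubiquitin ligases cIAP1 and cIAP2, which marks NIK for degradation. When BAFF engages its receptor, TRAF3 is removed, NIK accumulates and activates IKK alpha, and the NFKB2 precursor p100 is processed to p52, which enters the nucleus with RELB. This non-canonical NF-kB pathway maintains mature B cells, and B cells are among the most radiosensitive cells of the blood.

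Levels are given as the log2 of the processed signal minus the median of the array, so that a level of 0 is the median spot and 1 unit is a factor of 2. A level is a property of a probe and was not compared between genes. A gene passed the test where limma's moderated test gave a two-sided p below 0.005 together with a Benjamini-Hochberg adjusted p below 0.05 over all genes tested, and all adjusted p values below are of this kind. Where a gene had several probes, the probe with the highest mean signal represents it.

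The arrays were checked first. The tissue carried the markers of blood, with all 10 B cell, all 10 T cell, 10 neutrophil and 7 platelet genes measured. Per array, the median signal ran from 8.66 to 44.8 and the share of spots well above background from 43.9% to 64.4%. The arrays of old irradiated mice 4 and 6 stood apart, with the lowest median signals (8.66 and 8.84, against 14.4 or more elsewhere) and with red cell marker levels of 11.87 and 11.91 against 7.33 to 8.37 in the other 4 mice of that group. Pairs of arrays in the old irradiated group differed by a median absolute 1.68 on the log2 scale, against 0.414 to 0.66 in the other groups. The mean of 8 hepatocyte genes was high (9.2 to 10.68) in young irradiated mice 2, 4 and 5 and old irradiated mice 2, 3 and 5, against at most 6.67 elsewhere. The main differences in old irradiated mice are given with and without mice 4 and 6, and values relative to cell markers only with them. The arrays lay on 6 slides of 4, only 1 slide at each age held both irradiated and unirradiated mice, and the young and old arrays were scanned on different days, so that age and scan day cannot be told apart. Nothing in the labels describes the arrays of a group other than as separate mice.

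The regulatory sequence of the genes that end the pathway is shown because p52 and RELB bind kappa-B sites, which makes the genes of the pathway possible targets of its own factors. The 250 bases before each annotated transcription start were read from RefSeq, build GRCm38.p6, which held 11 such windows for 8 of the 9 genes and none for Relb. The kappa-B consensus, searched on both strands, occurred in 4 of the 11 windows, namely all 3 starts of Nfkb2 and the start of Traf3, and in 7.25% of 32851 windows of the same length. The PU.1 core GAGGAA, also searched on both strands, was present in 1 of the 11 (Traf2) and in 23.3% of all windows. Each sequence is written 5′ to 3′ toward the start site with the kappa-B matches in capitals, and Tnfrsf13c, which fell furthest and has no match in this window, is shown for comparison.
Nfkb2 start 1, chr19:46304487-46304736, + strand: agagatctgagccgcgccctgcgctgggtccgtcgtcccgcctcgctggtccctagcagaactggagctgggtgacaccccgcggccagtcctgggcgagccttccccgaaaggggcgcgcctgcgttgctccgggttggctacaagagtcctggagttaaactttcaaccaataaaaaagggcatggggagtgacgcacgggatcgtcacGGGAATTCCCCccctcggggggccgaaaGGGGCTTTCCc
Nfkb2 start 3, chr19:46305680-46305929, + strand: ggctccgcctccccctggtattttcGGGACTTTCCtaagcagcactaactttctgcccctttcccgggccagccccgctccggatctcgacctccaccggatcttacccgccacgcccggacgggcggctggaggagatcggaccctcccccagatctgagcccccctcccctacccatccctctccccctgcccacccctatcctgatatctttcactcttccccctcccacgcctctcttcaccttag
Traf3, chr12:111166120-111166369, + strand: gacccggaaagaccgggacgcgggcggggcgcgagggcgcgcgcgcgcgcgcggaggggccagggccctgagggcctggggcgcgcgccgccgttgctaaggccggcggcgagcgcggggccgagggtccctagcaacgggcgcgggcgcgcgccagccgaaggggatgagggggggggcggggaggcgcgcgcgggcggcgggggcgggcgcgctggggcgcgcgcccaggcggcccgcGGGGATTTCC
Tnfrsf13c, chr15:82224381-82224630, - strand: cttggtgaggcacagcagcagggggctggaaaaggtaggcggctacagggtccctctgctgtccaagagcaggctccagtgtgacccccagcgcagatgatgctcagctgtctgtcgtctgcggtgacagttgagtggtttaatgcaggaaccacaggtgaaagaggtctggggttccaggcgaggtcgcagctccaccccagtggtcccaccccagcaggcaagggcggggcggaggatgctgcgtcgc
The first Nfkb2 window holds overlapping matches that begin 39 and 38 bases before the start (GGGAATTCCC and GGAATTCCCC) and another at 11 bases (GGGGCTTTCC). The third window holds 1 match, 225 bases before its start, and in Traf3 the match ends at the start itself. A match is a description of the letters and does not show that a factor bound there.

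In young mice, irradiation was followed by higher BAFF ligand transcript and lower receptor, adaptor, kinase and NF-kB subunit transcripts. Of the 8 genes, 1 (Tnfsf13b) was upregulated and 6 were downregulated, and Traf3 did not pass the test, where 35.8% of all genes tested passed (14.4% upregulated and 21.4% downregulated). The median difference of the 8 genes was −1.17 on the log2 scale, against −0.20 for all genes tested. The 6 mice of one group all lay above the 6 of the other for 7 of the 8 genes, and for 25% of all genes tested.

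Tnfsf13b, the ligand of the BAFF receptor, ran from −0.97 to 0.26 (median −0.14) in young unirradiated mice and from 0.73 to 1.47 (median 1.27) in young irradiated mice. Every irradiated young mouse was above every unirradiated one, although in the unirradiated group the probe was well above background in only 4 of 6 mice. The difference was 1.44 ± 0.212 (log2, SE, n = 6 per group, limma adjusted p = 0.000168), or 2.72-fold. Tnfsfm13 likewise ran from 3.1 to 4.34 (median 3.35) without and from 4.55 to 6.13 (median 5.7) with radiation. Its groups did not overlap, and it was upregulated 3.8-fold (1.93 ± 0.319, limma adjusted p = 0.000377). Without young irradiated mice 2, 4 and 5, which had high hepatocyte signal, its difference was 1.39 and still passed (limma adjusted p = 0.0054).

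Both receptor genes moved the other way. Tnfrsf13c, the receptor that carries the survival signal of BAFF in mature B cells, had levels of 5.69 to 6.67 (median 6.29) in young unirradiated and 2.26 to 3.26 (median 2.85) in young irradiated mice. The groups were separated by more than the whole range of either, and the gene was downregulated 10.9-fold (−3.44 ± 0.232, limma adjusted p = 7.39e-07). Tnfrsf13b, the receptor shared by BAFF and APRIL, fell from 6.24 to 6.79 (median 6.61) to between 4.06 and 4.71 (median 4.29). It too was downregulated with no overlap, 4.69-fold (−2.23 ± 0.157, limma adjusted p = 9.23e-07).

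**Figure D1:**
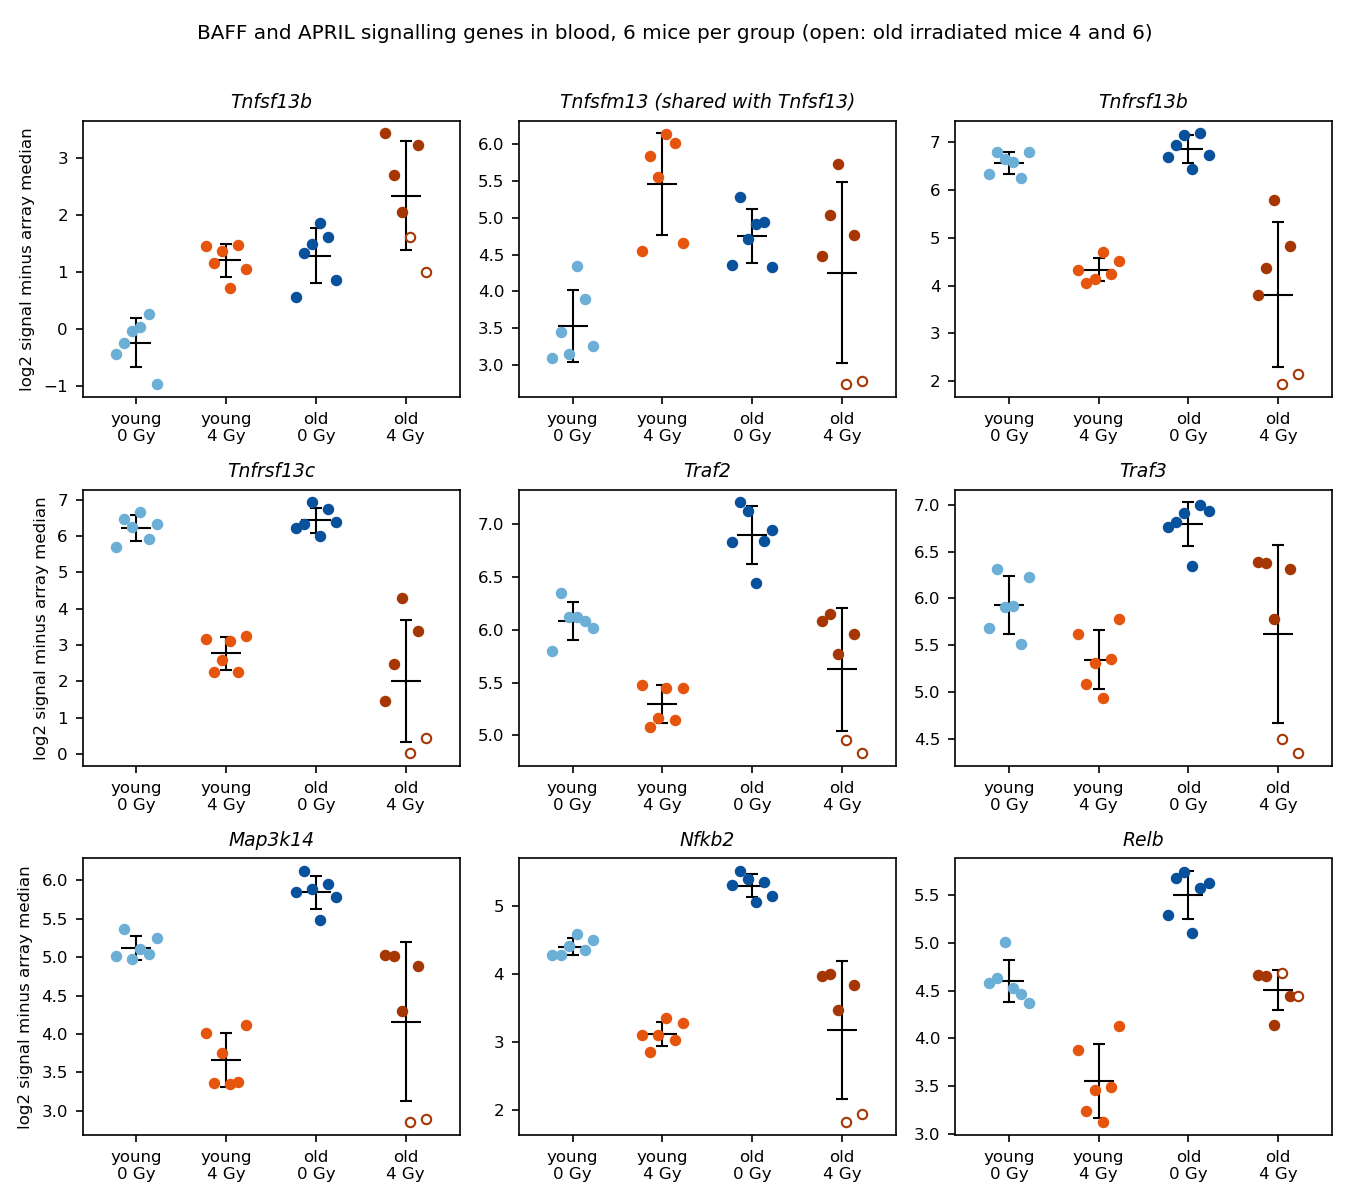
Log2 signal minus the array median (vertical axis) of each gene in every mouse, by group (horizontal axis), with 1 point per mouse, bars at the group mean ± SD and open points for old irradiated mice 4 and 6. In young mice Tnfsf13b rises from at most 0.26 to at least 0.73 after irradiation while Tnfrsf13c falls from at least 5.69 to at most 3.26, and the old irradiated mice spread most widely, from 0.02 to 4.28 for Tnfrsf13c.

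The adaptor and kinase genes fell by smaller amounts. Map3k14, which encodes NIK, ran from 4.97 to 5.36 (median 5.07) in young unirradiated and from 3.35 to 4.12 (median 3.56) in young irradiated mice, a downregulation of 2.75-fold (−1.46 ± 0.17, limma adjusted p = 3.43e-05). Traf2, which links the receptors to the cIAP ligases, fell from 5.8 to 6.35 (median 6.1) to between 5.08 and 5.48 (median 5.31), or 1.73-fold (−0.79 ± 0.136, limma adjusted p = 0.000503). Neither gene's groups overlapped. Traf3, the adaptor that targets NIK for degradation, ran from 5.51 to 6.32 (median 5.91) and from 4.93 to 5.78 (median 5.33), so that its groups overlapped. Its difference of −0.58 ± 0.189 missed the threshold on the unadjusted p (limma adjusted p = 0.0218). Without young unirradiated mouse 5 or young irradiated mouse 6 it did pass, at −0.67 both times.

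The NF-kB subunit genes were downregulated as well. Nfkb2 ran from 4.28 to 4.59 (median 4.39) in young unirradiated and from 2.86 to 3.36 (median 3.1) in young irradiated mice, 2.44-fold lower (−1.29 ± 0.128, limma adjusted p = 1.13e-05). Relb, the partner of p52, ran from 4.37 to 5.01 (median 4.56) and from 3.12 to 4.13 (median 3.47), 2.06-fold lower (−1.05 ± 0.188, limma adjusted p = 0.000668). In both genes every irradiated mouse was below every unirradiated one. On the single slide with 2 young mice of each kind, the differences, which were not tested, were 1.66 for Tnfsf13b, 1.61 for Tnfsfm13, −2.33 for Tnfrsf13b, −3.41 for Tnfrsf13c, −0.77 for Traf2, −0.52 for Traf3, −1.46 for Map3k14, −1.45 for Nfkb2 and −0.86 for Relb.

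In old mice irradiation was followed by lower receptor, adaptor, kinase and subunit transcripts, with a far wider spread among the irradiated mice. Of the 8 genes, 6 were downregulated and none was upregulated, and Tnfsf13b and Traf3 did not pass the test, where 25% of all genes passed (7.6% upregulated and 17.4% downregulated). The median of the 8 was −1.48, against −0.25 for all genes tested, and the groups did not overlap for 6 of the 8 genes and for 22.7% of all genes. Without old irradiated mice 4 and 6, 7 of the 8 passed, with Tnfsf13b now upregulated, where 34.7% of all genes passed. Without the 6 irradiated mice of high hepatocyte signal, 7 of the 8 passed in young and 6 in old mice, where 33.3% and 40.5% of all genes passed. In old mice Traf3 then passed (−1.72) and Relb did not (−0.91).

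Tnfrsf13c again fell furthest. It ran from 5.99 to 6.93 (median 6.36) in old unirradiated mice, while the 6 old irradiated mice had levels of 1.47, 2.49, 4.28, 0.02, 3.39 and 0.45 in the order of mice 1 to 6. The groups did not overlap, mice 4 and 6 were lowest with the probe not well above background, and the remaining 4 mice spanned 1.47 to 4.28. The difference was −4.42 ± 0.627 (limma adjusted p = 0.000538), and −3.53 without mice 4 and 6 (limma adjusted p = 0.000251). Tnfrsf13b ran from 6.44 to 7.19 (median 6.83) in old unirradiated mice and was 3.81, 4.36, 5.78, 1.93, 4.82 and 2.15 in old irradiated mice 1 to 6. It was downregulated with no overlap by −3.05 ± 0.573 (limma adjusted p = 0.00216), or by −2.16 without mice 4 and 6 (limma adjusted p = 0.000623).

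Tnfsf13b ran from 0.56 to 1.86 (median 1.42) in old unirradiated mice and was 3.44, 2.71, 2.05, 1.62, 3.23 and 1.01 in old irradiated mice 1 to 6. Mice 4 and 6 fell inside the range of the unirradiated mice and the other 4 lay above it. With all mice the difference of 1.05 ± 0.417 did not pass the test (limma adjusted p = 0.0644), and without mice 4 and 6 it was 1.57 and passed (limma adjusted p = 0.0025). It also passed without mouse 6 alone, at 1.32 (limma adjusted p = 0.0178), with scaling by the 75th percentile or the bright-probe median (1.36 and 1.4, limma adjusted p = 0.0147 and 0.0122) and in 1 fit of all 24 arrays (limma adjusted p = 0.013). It did not pass without old irradiated mice 2, 3 and 5, which had high hepatocyte signal (0.74, limma adjusted p = 0.225). Nor did it pass with quantile normalization, with slide as a fixed or random block, or with a replicate block. Tnfsfm13, in contrast to young mice, ran from 4.33 to 5.28 (median 4.81) without and from 2.74 to 5.72 (median 4.63) with radiation, with overlapping groups. Its difference was −0.50 (95% interval −1.54 to 0.55, limma adjusted p = 0.441) and 0.25 without mice 4 and 6 (limma adjusted p = 0.476). Without mice 2, 3 and 5 it was −1.42 and did not pass either (limma adjusted p = 0.0138), so its size and sign depended on the mice kept.

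Among the adaptors and the kinase, Traf2 fell from 6.44 to 7.21 (median 6.9) to between 4.83 and 6.15 (median 5.86), a difference of −1.28 ± 0.291 (limma adjusted p = 0.00557). Map3k14 fell from 5.48 to 6.12 (median 5.87) to between 2.85 and 5.03 (median 4.59), or −1.68 ± 0.414 (limma adjusted p = 0.008). Both were without overlap and both passed without mice 4 and 6, at −0.91 and −1.04. Traf3 ran from 6.35 to 7 (median 6.86) and from 4.34 to 6.39 (median 6.05). Its difference of −1.18 ± 0.392 missed the threshold on the unadjusted p (limma adjusted p = 0.0323). Without mice 4 and 6 it was −0.58 and did not pass either (limma adjusted p = 0.0267). Nfkb2 fell from 5.07 to 5.52 (median 5.34) to between 1.82 and 4 (median 3.67), or −2.13 ± 0.407 (limma adjusted p = 0.00236) and −1.48 without mice 4 and 6. Relb fell from 5.11 to 5.74 (median 5.61) to between 4.14 and 4.69 (median 4.55), or −1.0 ± 0.216 (limma adjusted p = 0.00427), and was the gene that mice 4 and 6 moved least, at −1.03 without them.

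On the slide that held 2 old mice of each kind the differences, which were not tested, were 1.84 for Tnfsf13b, 0.12 for Tnfsfm13, −2.88 for Tnfrsf13b, −4.58 for Tnfrsf13c, −0.78 for Traf2, −0.59 for Traf3, −0.84 for Map3k14, −1.27 for Nfkb2 and −0.95 for Relb. With slide as a fixed block, 5 of the 8 genes passed in young mice and 0 in old mice, where 10.4% and 2.86% of all genes passed. That fit rests on these mixed slides alone, and with slide as a random block 8 genes passed in young and 6 in old mice, where 50.3% and 25.9% of all genes passed.

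**Figure D2:**
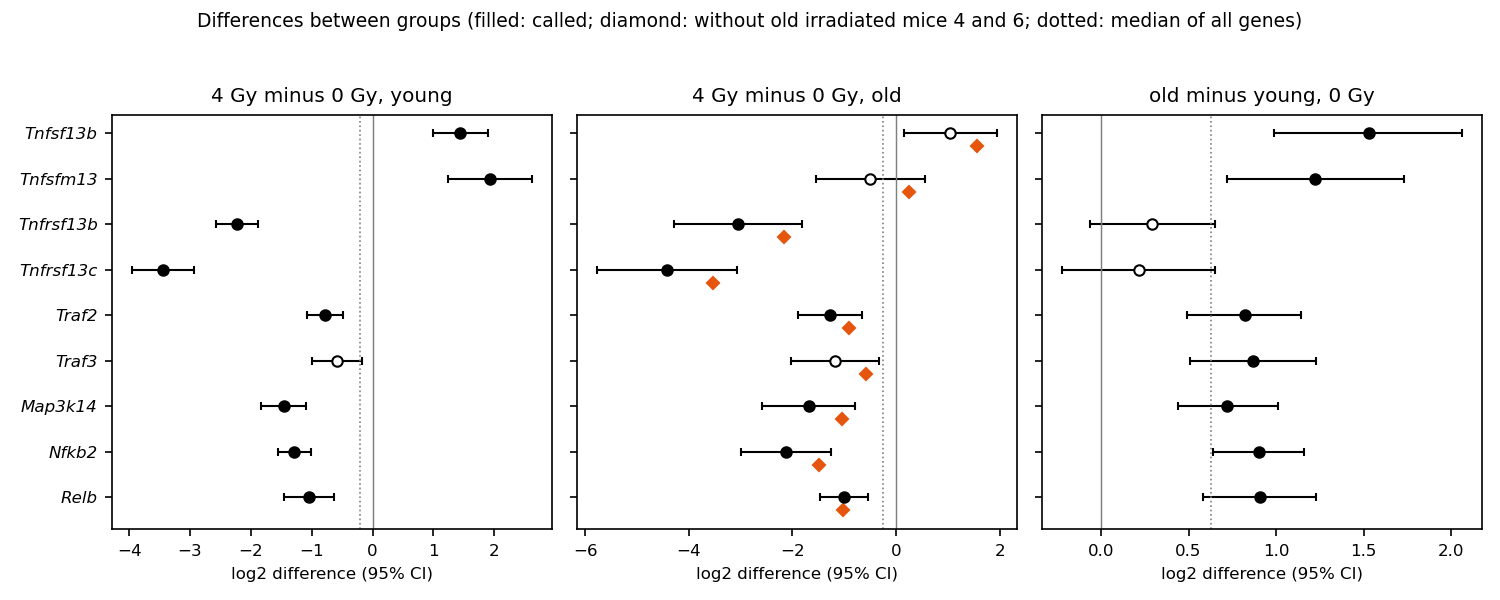
Difference in log2 signal with its 95% interval (horizontal axis) for each gene (vertical axis) in 3 comparisons of groups of 6 mice. Filled points passed the test, diamonds leave out old irradiated mice 4 and 6, and the dotted line is the median of all genes. The receptors lie furthest below 0 after irradiation at both ages (Tnfrsf13c at −3.44 and −4.42) and the intervals are wider in old mice.

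Ligands and receptors were next set against each other within each mouse. Each gene was centred on its mean in young unirradiated mice, and the ligand mean (Tnfsf13b and Tnfsfm13) and the receptor mean (Tnfrsf13b and Tnfrsf13c) were taken per mouse. The ligand mean was 1.68 ± 0.33 (SD, n = 6, range 1.22 to 2.09) in young irradiated, 1.37 ± 0.396 (0.81 to 1.74) in old unirradiated and 1.65 ± 0.981 (0.25 to 2.35) in old irradiated mice. The receptor mean was −2.84 ± 0.33 (−3.23 to −2.48), 0.26 ± 0.318 (−0.18 to 0.66) and −3.48 ± 1.59 (−5.41 to −1.36) in the same groups. The ligand mean minus the receptor mean ran from −0.68 to 0.74 in young unirradiated, 0.75 to 1.92 in old unirradiated, 3.73 to 5.22 in young irradiated and 3.6 to 6.06 in old irradiated mice. Irradiated mice were therefore above all unirradiated mice at both ages, and a difference within an array does not depend on the constant subtracted from the array. The receptor mean alone already separated them, as it was −0.38 or more in every unirradiated mouse. In old mice the ligand means with and without radiation overlapped, so the separation there does not show a rise of the ligands. How often other sets of genes separate the mice in this way was not computed. In old irradiated mice 4 and 6 the ligand means were 0.53 and 0.25 and the receptor means −5.41 and −5.09. Over the adaptors and kinase the mean was −0.94, 0.8 and −0.58, and over the NF-kB subunits −1.17, 0.9 and −0.66, in young irradiated, old unirradiated and old irradiated mice.

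Among unirradiated mice, Tnfsf13b was higher in old than in young mice under each of 4 scalings of the arrays, whereas the calls for the adaptor, kinase and subunit genes rested on the scaling and the receptor genes did not pass the test. With the array median, 6 of the 8 genes were higher in old mice and none was lower, which is near the share of all genes that passed (63.8%, with 48.3% higher and 15.5% lower). The median of all genes tested was itself 0.63 higher in old mice, and that of the 8 genes 0.84, so each difference is also given relative to 0.63. The groups did not overlap for 6 of the 8 genes and for 48.6% of all genes. The unirradiated mice are the controls of the radiation comparisons as well, so these comparisons share arrays.

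Tnfsf13b differed most, by 1.53 ± 0.248 (limma adjusted p = 0.000133), or 0.9 relative to all genes, with every old mouse above every young mouse. Its probe was well above background in only 4 of 6 young unirradiated mice, so the size is uncertain. With another background correction (normexp), 0 of 11776 genes tested passed between the ages. Tnfsfm13 was higher by 1.22 ± 0.236 (limma adjusted p = 0.000441), or 0.6 relative to all genes, with groups that just overlapped. Traf3, Traf2, Map3k14, Nfkb2 and Relb were higher by 0.87, 0.82, 0.72, 0.9 and 0.91, with adjusted p from 3.79e-05 (Nfkb2) to 0.000442 (Traf3) by limma. Relative to the median of all genes these 5 differences were between 0.1 and 0.28. The receptor genes did not pass the test, with 0.29 (95% interval −0.06 to 0.65, limma adjusted p = 0.114) for Tnfrsf13b and 0.22 (−0.22 to 0.65, limma adjusted p = 0.335) for Tnfrsf13c, which is −0.33 and −0.41 relative to all genes.

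How arrays were scaled decided most of these calls. Scaled by the 75th percentile, by quantile normalization or by the median over bright probes, the median of all genes was −0.02, 0.11 and −0.11 and Tnfsf13b was the only 1 of the 8 genes that passed, at 1.01, 1.41 and 0.94, where 37.8%, 37.9% and 36.5% of all genes passed. All 5 adaptor, kinase and subunit genes kept a positive difference without passing (0.09 to 0.39, Traf3 not tested over the bright probes), and the receptors were lower in old mice by up to −0.44 (Tnfrsf13b) and −0.48 (Tnfrsf13c), again without passing. Among all genes that passed, 75.7% were higher in old mice with the array median, and 27.9%, 42.5% and 20.6% with these 3 scalings. In the old radiation comparison the share upregulated was 30.4% with the array median and 49%, 36.9% and 54.4% with them.

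**Figure D3:**
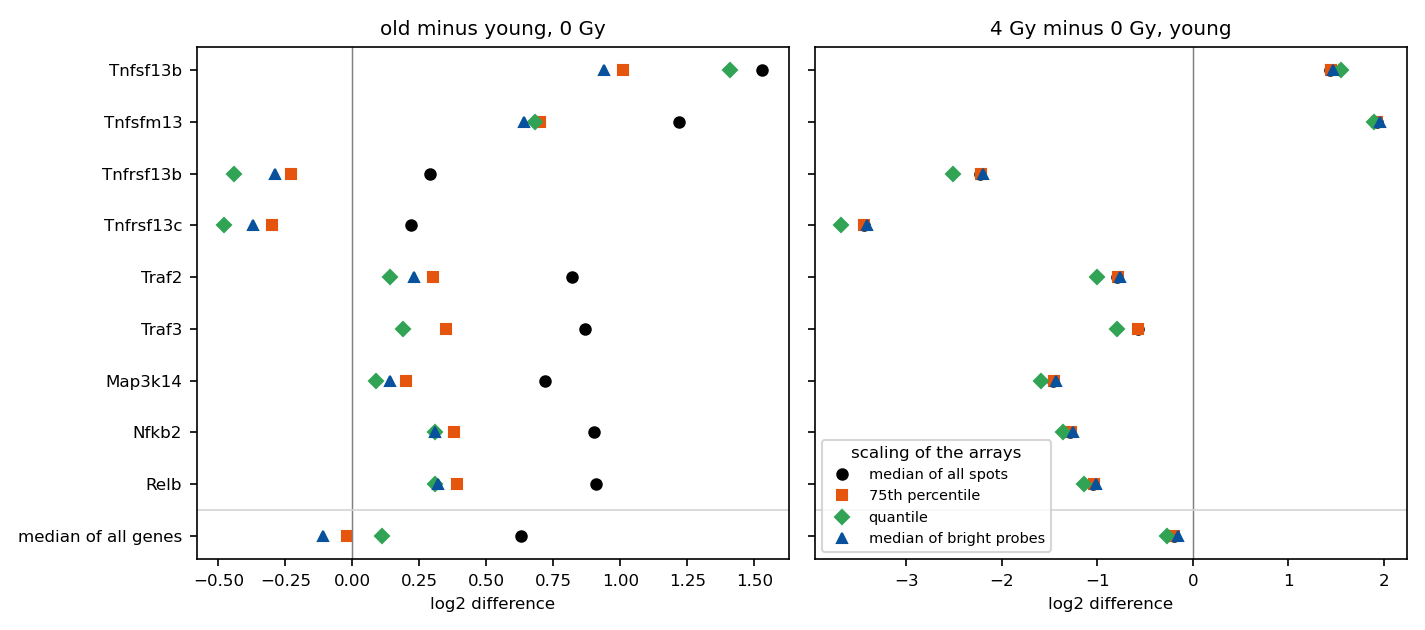
Difference in log2 signal (horizontal axis) of each gene and of the median gene (vertical axis) under 4 scalings of the arrays, between unirradiated old and young mice (left) and between irradiated and unirradiated young mice (right). Between unirradiated old and young mice Tnfrsf13c moves from 0.22 to −0.48 (quantile) while Tnfsf13b stays above 0.9 under every scaling shown. After irradiation of young mice the receptors stay far below 0 under every scaling shown.

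Whether the radiation response differed with age was tested as the interaction, the difference in old mice minus that in young mice. None of the 8 genes and 0 of the 17464 genes tested passed with limma (0%), although 4115 genes had an unadjusted p below 0.05 and the random variance test also gave 0. The interaction was −0.97 (95% interval −2.42 to 0.47) for Tnfrsf13c, −0.82 (−2.09 to 0.46) for Tnfrsf13b, −0.84 (−1.73 to 0.05) for Nfkb2, −0.39 (−1.37 to 0.6) for Tnfsf13b and 0.04 (−0.51 to 0.6) for Relb. The interaction of Tnfsfm13, upregulated in young but not in old mice, was −2.42 ± 0.601 and missed the threshold after adjustment (limma adjusted p = 0.106). It was −1.68 without old irradiated mice 4 and 6 (limma adjusted p = 0.115) and passed without old irradiated mouse 3, at −2.72 (limma adjusted p = 0.0307). Without the 6 irradiated mice of high hepatocyte signal, which leaves old irradiated mice 1, 4 and 6, the interaction passed for Tnfrsf13c (−2.57, limma adjusted p = 0.0033), Tnfrsf13b (−1.99, adjusted p = 0.0082) and Tnfsfm13 (−2.81, adjusted p = 0.00454), where 20.7% of all genes passed.

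Different probes of the same gene were then compared. The probes that represent Tnfrsf13b and Tnfrsf13c lie far along their transcripts, from base 2451 (mm9 chr11:60962770-60962829) and base 1817 (mm9 chr15:82052203-82052262). Base 2451 of Tnfrsf13b is counted on another annotated transcript than its bases 408 and 175, but these probes lie in the same order along the chromosome. Probes nearer the beginning, from bases 408 and 175 of Tnfrsf13b and base 91 of Tnfrsf13c, were lower in young irradiated mice by smaller amounts, at −1.08, −0.69 and −1.90, the second with overlapping groups. In old irradiated mice 4 and 6 the late probes of the receptors were lower than in the other 4 mice of the group by −2.65 and −2.67, whereas the early probes were higher by 2.16, 2.19 and 2.36. With all 6 old irradiated mice, the early probes differed from unirradiated old mice by −0.89, −0.65 and −1.62, each with overlapping groups, against −3.05 and −4.42 for the late probes. Without mice 4 and 6, the early probes differed from unirradiated old mice by −1.62, −1.38 and −2.41, in the same direction as the late ones.

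Relb has a probe that behaved unlike the others. Its probes from base 1993 and base 1933 agree, with −1.05 and −1.05 in young mice, −1.0 and −1.04 in old mice and 0.91 and 0.86 between the ages. The probe from base 785 of another Relb transcript gave −0.11, 0.67 and −1.12, was lower in every old than in every young unirradiated mouse (1.09 to 1.99 against 2.48 to 2.8), and was 3.06 higher in old irradiated mice 4 and 6 than in the other 4. The direction given above for Relb is that of the first pair of probes. The probes of Map3k14 (base 3942 and base 437) agree in sign in all 3 comparisons, with −1.46 and −0.58, −1.68 and −1.45, and 0.72 and 1.02, although the groups overlapped in all 3 for the probe from base 437. The second Traf2 probe (base 2966), which was dim on many arrays, gave −0.49 in young and −1.31 in old mice with overlapping groups, and 0.06 between the ages. For Tnfsfm13 the probes from bases 1521 and 2175 gave 1.93 and 1.34 in young mice, −0.50 and −0.44 in old mice and 1.22 and 0.62 between the ages.

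**Figure D4:**
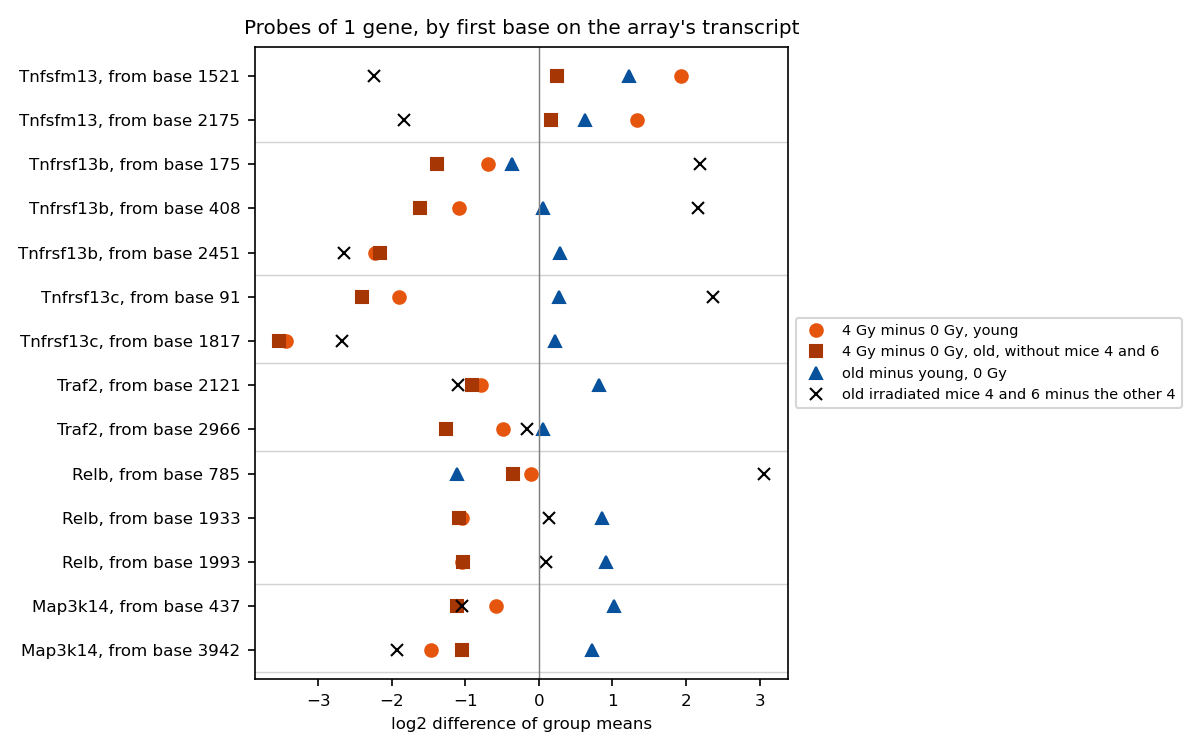
Difference in log2 signal (horizontal axis) of every probe of the genes with several probes (vertical axis, by the base of the transcript at which the probe starts), for the group comparisons (symbols and colours) and for old irradiated mice 4 and 6 against the other 4 (crosses). Early and late receptor probes lie on the same side of 0 in young mice, while the crosses lie on opposite sides, 2.16 to 2.36 above and 2.65 or 2.67 below.

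The levels of cell markers also differed between the groups and are given beside these genes. The mean of 10 B cell markers ran from 5.56 to 6.07 in young unirradiated, 2.92 to 3.97 in young irradiated, 5.95 to 6.93 in old unirradiated and 1.84 to 4.68 in old irradiated mice, with 10 of 10 markers downregulated in young and 9 of 10 in old mice. In whole blood, fewer B cells and less RNA per B cell cannot be told apart. Subtracting the B cell marker mean within each array left Tnfrsf13b at 0.23 in young and 0.5 in old mice, with overlapping groups. Values relative to markers include old irradiated mice 4 and 6 and were not computed without them. In these mice Tnfrsf13b was 1.93 and 2.15 beside B cell marker means of 1.84 and 1.93. In old irradiated mice 1, 2, 3 and 5 it was 3.81, 4.36, 5.78 and 4.82 beside 2.15, 3.17, 4.68 and 3.74. Tnfrsf13c remained lower, by −0.98 in young and −0.87 in old mice, with no overlap at either age. Its probe was not well above background in old irradiated mice 4 and 6. Relative to the markers, Tnfrsf13c was −0.45 lower in old than in young unirradiated mice, again with no overlap. Traf2, Traf3 and Relb were higher relative to the B cell markers at both ages with no overlap, by 1.42 to 1.88 in young and 2.28 to 2.55 in old mice, and Nfkb2 did so in young mice (1.17). The marker mean itself fell from 5.8 to 3.34 in young and from 6.47 to 2.92 in old mice. Any gene that fell less is therefore higher relative to it, and the median of all genes differed by only −0.20 and −0.25. The share of all genes without overlap on this scale was not computed.

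Myeloid markers are given beside the ligand genes. The mean of 9 monocyte and macrophage markers ran from 5.53 to 6 in young unirradiated, 6.48 to 6.98 in young irradiated, 6.49 to 7.15 in old unirradiated and 4.53 to 7.03 in old irradiated mice, where mice 4 and 6 were lowest (4.53 and 4.72). In young mice 5 of the 9 were upregulated and 1 downregulated, and in old mice 0 and 2 (1 and 3 without mice 4 and 6). The mean of 10 neutrophil markers ran from 4.23 to 5.36, 5.16 to 6.11, 5.7 to 7.67 and 6.29 to 8.29 in the same order of groups, with 4 of 10 upregulated in young irradiated and 7 of 10 higher in old unirradiated mice. In old irradiated mice 0 of 10 passed, and 2 were upregulated without mice 4 and 6. Relative to the monocyte markers, Tnfsf13b differed by 0.54 in young mice with overlap and by 1.88 in old mice without overlap, and Tnfsfm13 by 1.03 and 0.32 with overlap. Relative to the neutrophil markers, Tnfsf13b differed by 0.59 and 0.35 after irradiation and by 0.05 between the ages, each time with overlap. Tnfsfm13 differed from them after irradiation by 1.07 in young and −1.21 in old mice, again with overlap. The mean of 10 T cell markers ran from 6.34 to 6.71, 4.02 to 5.73, 6.13 to 7.61 and 5.43 to 6.45 in the same order, with 8 of 10 downregulated in young and 1 of 10 in old mice. The mean of 7 red cell markers ran from 9.45 to 10.87, 7.42 to 9.31, 9.18 to 10.84 and 7.33 to 11.91, with 4 of 7 downregulated in young and 0 of 7 in old mice. For 5 plasma cell markers it ran from 3.93 to 4.41, 3.74 to 4.12, 4.82 to 5.51 and 3.54 to 5.54. All 7 platelet markers were upregulated at both ages, and 4 of 4 tested hepatocyte genes were upregulated in old mice and 0 of 4 in young mice. The part of these cells in the differences of the ligand, adaptor, kinase and subunit genes was not tested.

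**Figure D5:**
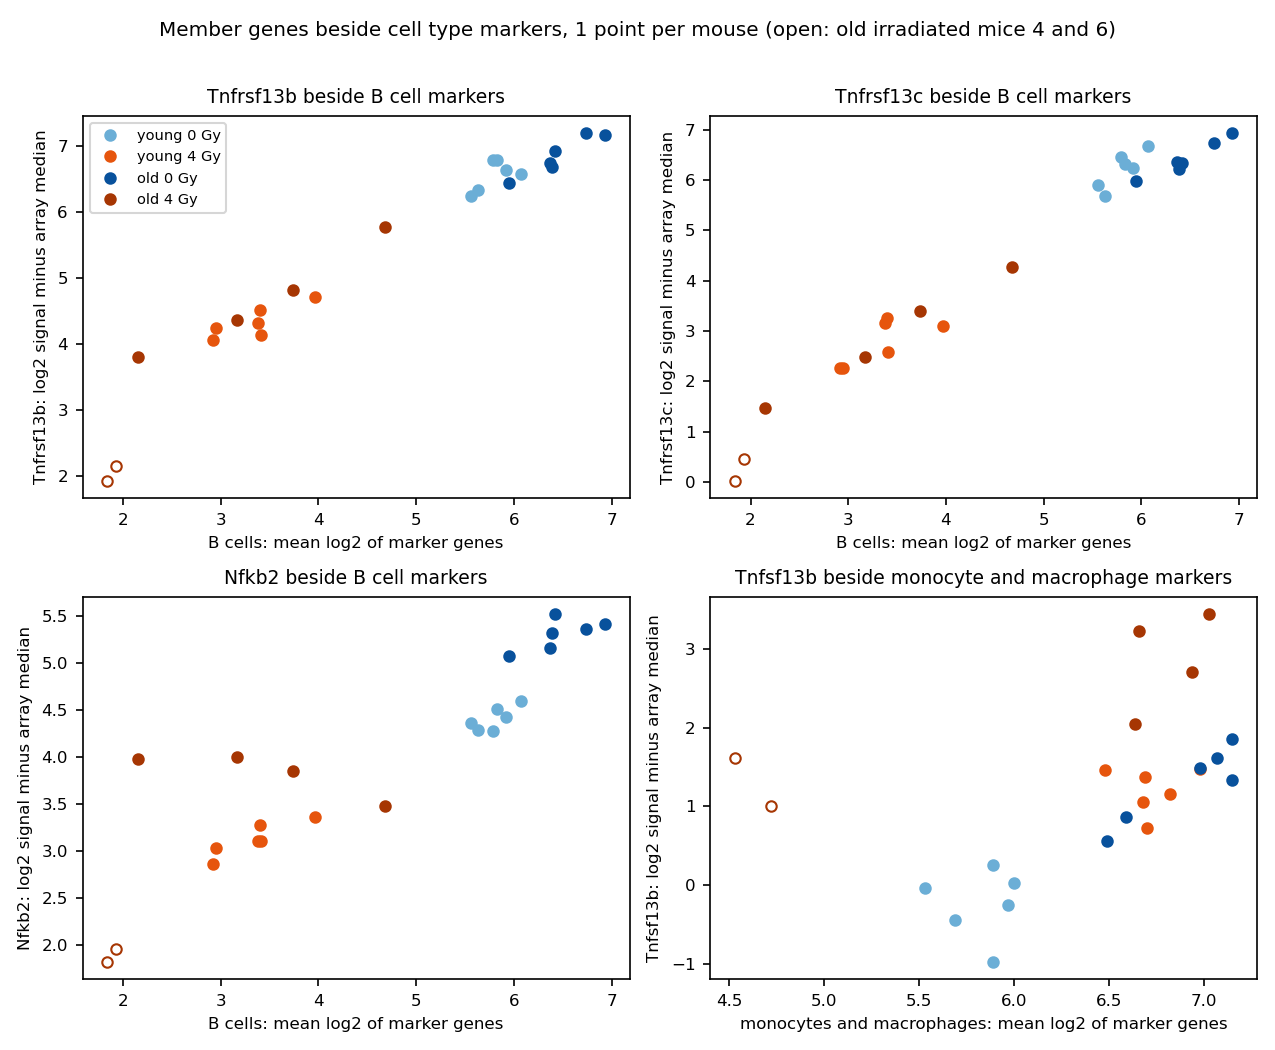
Level of Tnfrsf13b, Tnfrsf13c, Nfkb2 and Tnfsf13b (vertical axis, log2 signal minus the array median) against the mean level of a cell marker list (horizontal axis, the same unit), with 1 point per mouse and groups by colour, open points being old irradiated mice 4 and 6. Both receptors run along with the B cell markers over 1.84 to 6.93, Nfkb2 does so less closely among irradiated mice, and 4 old irradiated mice have the highest Tnfsf13b at monocyte marker levels shared with other groups.

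The rest of the pathway was described through 31 further genes in 4 lists, 28 of which were tested. In young mice 4 of the 28 were upregulated and 12 downregulated (median −0.56, against −0.20 for all genes, of which 14.4% and 21.4% passed in these directions). In old mice it was 2 and 9 (median −0.98, against −0.25, with 7.6% and 17.4% of all genes), and 2 and 11 without mice 4 and 6. Between unirradiated mice 19 of the 28 were higher in old mice and 0 lower (median 0.82, against 0.63), near the 63.8% of all genes that passed, and this became 5 and 2, 5 and 1, and 4 and 2 under the 3 other scalings. No gene of the lists passed the interaction with all mice, while Cr2 passed without mice 4 and 6 (−1.76, limma adjusted p = 0.037) and 5 genes passed without the 6 mice of high hepatocyte signal.

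Of the other receptors, which BAFF or APRIL bind or which also release NIK, 2 of 5 tested were upregulated and 2 downregulated in young mice, and 1 and 1 in old mice (0 and 1 without mice 4 and 6). Cd40, through which T cells help B cells, was downregulated by −1.50 in young (limma adjusted p = 0.000172) and −3.98 in old mice (limma adjusted p = 0.00203, −2.77 without mice 4 and 6). Ltbr, the lymphotoxin beta receptor, was upregulated in young mice (1.2, limma adjusted p = 0.00304), with −0.05 in old mice (0.93 without mice 4 and 6, not passing either time), and was 1.37 higher in unirradiated old mice. Cd27, a lymphocyte costimulatory receptor, was downregulated in young mice (−1.62), with −0.10 in old mice (−1.11 without mice 4 and 6, not passing either time). Tnfrsf11a, the receptor RANK, was upregulated in young (0.75) and old mice (1.13, limma adjusted p = 0.0197), and did not pass in old mice without mice 4 and 6 (0.7). Tnfrsf17, the receptor BCMA, did not pass the filter on dim probes.

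Of the TRAF, cIAP and IKK genes, 2 of 8 tested were upregulated and 4 downregulated in young mice, and 1 and 3 in old mice. Traf5 was downregulated at both ages (−1.90, limma adjusted p = 5.56e-06, and −2.29, limma adjusted p = 0.000333). Traf1 did not pass at either age (−0.37 and −0.19). Birc2, which encodes cIAP1, was upregulated in young mice (1.35), with 0.8 in old mice, where it passed only without mice 4 and 6 (1.74). Chuk, which encodes IKK alpha, did not pass after irradiation (0.52 and −0.13) and was 1.02 higher in unirradiated old mice. Otud7b, a deubiquitinase that spares TRAF3, was named after its values were seen, being upregulated by 2.17 in young (limma adjusted p = 0.000671) and 1.83 in old mice (limma adjusted p = 0.000953).

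Of the other NF-kB subunits and inhibitors, 3 of 7 tested were downregulated in young and 3 in old mice, and none was upregulated. Rel, the c-Rel subunit of the canonical pathway, was downregulated by −1.65 and −2.01, and Rela did not pass (−0.30 and −0.39). Nfkbia, which encodes the inhibitor I kappa B alpha, did not pass either (−0.22 and −1.13, the second −0.42 without mice 4 and 6). Bcl3 was downregulated in young mice (−0.86), with −1.18 in old mice (−0.30 without mice 4 and 6, not passing either time). Of the B cell survival and maturation genes downstream of BAFF, 3 of 8 were downregulated in young and 2 in old mice, and none was upregulated. Cr2, the complement receptor of mature B cells, was downregulated by −2.64 (limma adjusted p = 1.12e-05) and −3.74 (limma adjusted p = 0.000191, −4.4 without mice 4 and 6). Fcer2a, the CD23 gene of mature B cells, was named after its values were seen, with −4.32 in young (limma adjusted p = 4.78e-07) and −5.51 in old mice (limma adjusted p = 1.12e-07). The survival gene Bcl2 did not pass at either age (−0.32 and −0.92), Mcl1 had −0.25 and −0.47, and Bcl2l1 was downregulated in young mice (−1.26), with −0.19 in old mice (−0.99 without mice 4 and 6, not passing either time).

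Finally, the genes whose levels ran most like each member over the 24 arrays were listed by Pearson's r, which is given as a description because all arrays share the group differences. The closest to Tnfrsf13c were Fcmr (0.993), Ebf1 (0.99) and Xkrx (0.99), and to Tnfrsf13b they were Fcrla (0.991), Ebf1 (0.99) and Tnfrsf13c itself (0.987). The closest to Tnfsf13b were Cpe (0.948), Cpeb2 (0.947) and Hexa (0.945), and to Tnfsfm13 they were Arsa (0.973), Gusb (0.971) and Cmtm3 (0.967). Traf2 ran closest to Sart3 (0.984), Traf3 to Map4k4 (0.986), Nfkb2 to Dnajb5 (0.988) and Map3k14 to Ccm2 (0.988). After the group means were removed, Tnfrsf13b and Tnfrsf13c still varied together among the mice (r = 0.96, and 0.92 without old irradiated mice 4 and 6), as did Traf3 and Map3k14 (0.96 and 0.84). Between Tnfrsf13b and Nfkb2 it was 0.81 with those mice and −0.11 without them.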

How the data were processed

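Whole-blood RNA of 24 mice was hybridized to 1-colour arrays, 1 per mouse. Per the file headers, the scanner files were made with Agilent Feature Extraction 12.0.2 and hold a background-corrected intensity per spot, as deposited. The authors also deposited a table of 17190 rows of log2 values, which correlated with the scanner values at 0.995 or more per array. Its column medians were 5.77 to 6.73 and its centring is unknown, so it served as an alternative. Here the log2 of the processed signal minus the array median over 43020 non-control spots was used, with spots of a probe averaged. Probes not significantly above background or flagged as non-uniform in at least 25% of arrays were left out, as in the study's methods. This left 24121 probes of 18729 genes, with the brightest probe per gene. The 17464 genes that varied 1.5-fold in at least 20% of arrays were tested with limma 3.58.1 in R 4.3.3, separately for each pair of groups and over all 24 arrays for the interaction. On simulated data, 50%, 8%, 57% and 5% of genes changed by 1 on the log2 scale were recovered in the young, old, age and interaction comparisons, and 85%, 54%, 93% and 50% of those changed by 2. The simulation changed only 100 genes by each amount, drew genes independently and gave each gene 1 spread in all groups. In the data 25% to 63.8% of genes passed in the group comparisons, so these shares do not give the power here. The members and gene lists were chosen with earlier results of these data known. The named genes of a pathway list were those with the highest mean level, up to 4, apart from those said to be otherwise chosen. Alternatives covered scaling, background correction, filters, probe choice, test, slide, replicate block and each array left out. Some very similar array pairs (old unirradiated mice 1 and 6, young irradiated mice 2 and 5) were kept as separate mice. The number of arrays limits the precision, and the labels call them mice without naming a further source of replication. Genes with a pattern like that of Relb are not reported here.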

Additional observations from a re-analysis of the deposited data

Results flagged for a closer look

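In old unirradiated mice, the Traf3 level of mouse 4 was 6.35 and lay apart from the other 5 mice, which reached 7. The gap to the nearest mouse was 0.636 of the range of the group. It was the only 1 of 36 groups of values tested in this way that passed, where chance alone passes about 1 in 20.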

How the results depend on the processing

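When single arrays were left out, 7 to 8 of the 8 genes passed after irradiation of young mice, 6 to 7 after irradiation of old mice, 6 to 6 in the age comparison and 0 to 0 for the interaction. The age comparison gave 1 gene under each of 75th percentile, quantile and bright-probe scaling, 2 in the authors' table and 3 with 1 fit of all arrays. Normexp background correction left 1 gene for radiation in young mice, 0 for radiation in old mice and 0 for age, or 4, 1 and 0 without the 3 arrays on which the correction gave a median of 9.37 to 9.96 (6.14 to 6.99 elsewhere). A fixed slide block left 0 genes for radiation in old mice. Without the 6 arrays of high hepatocyte signal, 2 genes passed the interaction, beside 3609 of all genes, against 0 with all arrays, 26 without old irradiated mice 4 and 6, and 32 with slide as a random block. Relb reversed in the authors' table (0.95 for radiation in old mice, −1.62 for age), which holds the probe from base 785, and with that probe in the scanner files (0.67 and −1.12). Of all genes, 6251, 4366 and 11140 passed for radiation in young mice, radiation in old mice and age. These counts were 3748, 2845 and 4448 in the authors' table, 835, 8 and 0 with normexp, and 2429, 90 and 1567 with normexp without its 3 arrays. The fixed slide block gave 1812 and 500 for radiation in young and old mice, 1 fit of all arrays gave 3964 for radiation in young mice, 6285 for radiation in old mice (with all 8 members) and 6068 for age, and the scalings named first gave 5596, 5662 and 5327 for age. The cause of these changes was not tested, apart from the choice of probe for Relb. The replicate numbers did not pair the mice (correlation of same-numbered arrays −0.29 to 0.34), and as a replicate block they gave 7, 5, 6 and 0 genes. With 6 arrays a group, smaller changes in old mice could be missed, and signals near background, as for Tnfsf13b in young unirradiated mice, are uncertain in size.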
